A study of Mus musculus with 4 samples.

Results

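Accessible chromatin was examined at Cdc14a and Cdc14b, the genes targeted in the knockout line of a study of mouse embryonic stem cells. The members are the peaks that overlap either gene body or the 50 kb on each side of it, in mm10 coordinates. Peaks are the stretches of open DNA called in each library. Of 838566 peaks in the 4 lists, 263 lay in these windows, 135 at Cdc14a (gene ID 229776, chromosome 3, 116272553 to 116428741, minus strand) and 128 at Cdc14b (gene ID 218294, chromosome 13, 64192545 to 64274988, minus strand). With the flanks, the windows spanned 256.2 kb and 182.4 kb.

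Open DNA was tagged by transposase in single nuclei (snATAC-seq), and the same nuclei were also assayed for RNA. The cells came from mouse blastocysts and were labelled either Cdc14ab KO, a knockout of both genes, or wild type. Each genotype was taken at day 0, in medium with LIF, a cytokine that holds off differentiation, and at day 5 in neural medium, N2B27 with EGF and FGF2. Per the labels, the cells were grown over feeders, which were removed before extraction, all libraries carry the label clone 3, and where in either gene the knockout was made is not given. With 1 library for each group, differences have neither a replicate check nor a test, and the line and the genotype cannot be told apart.

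CDC14 phosphatases remove phosphate from sites of cyclin-dependent kinases. In budding yeast, Cdc14 drives the exit from mitosis. In vertebrates CDC14A is linked to centrosomes and to the cilia of the inner ear, and CDC14B, which gathers in the nucleolus, to the DNA damage response. An accessible transcript start marks DNA open to the transcription machinery and says nothing on whether a functional protein is made.

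Each gene had a start under a peak in every library. RefSeq's promoter table lists 3 starts for Cdc14a and 2 for Cdc14b. Their sequences, from 250 bases before to 50 after each start, are shown because they are the stretches where the peaks of the targeted genes do or do not lie. They are RefSeq sequences of build GRCm38.p6, the assembly of mm10, on the minus strand. Capitals mark matches, on either strand, to 7 motifs searched in each window: the TATA box TATAAA, the CCAAT box, the Sp1 box GGGCGG, the CHR elements of cell cycle promoters in the forms TTTGAA or else TTCGAA, the E2F core TTTGGCG and the E-box CACGTG.
Cdc14a outermost start (chr3:116428692-116428991): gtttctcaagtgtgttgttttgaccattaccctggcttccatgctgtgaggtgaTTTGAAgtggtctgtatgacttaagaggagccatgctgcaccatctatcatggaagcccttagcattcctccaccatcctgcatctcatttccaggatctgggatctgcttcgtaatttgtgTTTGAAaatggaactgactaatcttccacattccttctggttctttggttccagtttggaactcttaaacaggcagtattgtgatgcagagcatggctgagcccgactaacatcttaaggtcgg
Cdc14a start with peaks (chr3:116424023-116424322): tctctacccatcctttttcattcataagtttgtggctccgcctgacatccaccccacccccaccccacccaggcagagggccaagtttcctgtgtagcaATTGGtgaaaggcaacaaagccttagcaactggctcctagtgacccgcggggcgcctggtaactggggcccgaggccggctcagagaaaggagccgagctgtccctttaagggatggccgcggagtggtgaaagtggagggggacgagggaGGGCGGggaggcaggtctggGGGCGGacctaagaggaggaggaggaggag
Cdc14a internal start (chr3:116354195-116354494): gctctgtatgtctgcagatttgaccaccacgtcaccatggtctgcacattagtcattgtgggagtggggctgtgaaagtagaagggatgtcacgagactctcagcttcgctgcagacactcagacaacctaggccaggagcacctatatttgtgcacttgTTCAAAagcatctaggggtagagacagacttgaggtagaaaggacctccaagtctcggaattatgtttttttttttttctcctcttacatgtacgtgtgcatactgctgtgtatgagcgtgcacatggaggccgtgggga
Cdc14b upstream start (chr13:64274939-64275238): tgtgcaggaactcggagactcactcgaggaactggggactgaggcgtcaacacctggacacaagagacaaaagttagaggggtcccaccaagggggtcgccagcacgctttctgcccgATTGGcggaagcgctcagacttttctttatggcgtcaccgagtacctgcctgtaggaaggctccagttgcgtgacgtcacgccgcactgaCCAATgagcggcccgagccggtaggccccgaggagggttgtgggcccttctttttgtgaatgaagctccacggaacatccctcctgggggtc
Cdc14b internal start (chr13:64248489-64248788): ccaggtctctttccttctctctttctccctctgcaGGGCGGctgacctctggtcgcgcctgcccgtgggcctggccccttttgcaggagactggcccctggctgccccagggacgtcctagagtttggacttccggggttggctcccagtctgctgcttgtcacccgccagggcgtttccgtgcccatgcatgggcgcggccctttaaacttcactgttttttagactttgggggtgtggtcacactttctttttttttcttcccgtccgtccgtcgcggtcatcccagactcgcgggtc

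At Cdc14a the start at base 116424072 lay under a peak in all libraries. That peak spanned 116423618 to 116424406 in the knockout and 116423623 to 116424412 in wild type at day 0. At day 5 it spanned 116423362 to 116424383 in the knockout and 116423465 to 116424302 in wild type. The peak centres lay 60 bp (knockout, day 0), 54.5 bp (wild type, day 0), 199.5 bp (knockout, day 5) and 188.5 bp (wild type, day 5) downstream of the start. This single peak thus reached further into the gene at day 5 in both genotypes. Just downstream of it, wild type at day 0 alone had a separate peak at 116422587 to 116423308. Within 1 kb of the start, peaks covered 1113 bp in the knockout and 1381 bp in wild type at day 0. At day 5 they covered 1324 and 1141 bp. A further peak about 1 kb upstream, inside a joined stretch of 116424719 to 116425576, was also present in every library. The peak over the Cdc14a start also covers the start of Gm40125, a lncRNA gene on the opposite strand whose start is at base 116424251.

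Neither other Cdc14a start lay under a peak in any library. Around the outermost start, at base 116428741, no base was covered within 1 kb. The nearest peak was 3175 bp away in the knockout and 3181 bp in wild type at day 0, and 3165 and 3173 bp away in the same order at day 5. The internal start, at base 116354244, lay 532 bp (knockout) and 539 bp (wild type) from a peak at day 0, and 553 and 512 bp from one at day 5, on its upstream side. That peak occupied a joined stretch of 116354756 to 116355751 and was present in all libraries. Over all 32851 starts in the table, 47.0% had a peak over the start base in all 4 libraries and 39.7% had one in none.

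Both Cdc14b starts were covered in every library. Over the upstream start, at base 64274988, the peak spanned 64274554 to 64275416 in the knockout and 64274618 to 64275476 in wild type at day 0. It spanned 64274528 to 64275362 in the knockout and 64274509 to 64275396 in wild type at day 5. Its centre was within 59 bp of the start in each library, so this peak sat squarely on the start. About 1 kb further upstream, within 64275711 to 64276436, a smaller peak was listed in the knockout at both days and in wild type at day 0, but not in wild type at day 5. The internal start, at base 64248538, lay near the downstream edge of a peak of 812 bp in the knockout and 791 bp in wild type at day 0, and of 821 and 847 bp at day 5. It faces 1810034E14Rik, a lncRNA gene on the opposite strand whose start, at base 64248700, lies under the same peak.

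The starts under peaks were richer in CpG than the bare ones. The covered Cdc14a window held 12 CpG and 61.7% GC, and the Cdc14b windows held 19 (upstream) and 18 (internal) CpG at 59.7 and 61.0% GC. The Cdc14a starts without a peak held 3 (outermost) and 7 (internal) CpG at 45.3 and 48.3% GC. The same held across the table, with a median of 20 CpG at starts with a peak in all libraries and 3 at starts with a peak in none. GGGCGG occurred at bases 0 and 20 relative to the covered Cdc14a start and at base -215 relative to the internal Cdc14b start, and was found in 35.7% of all windows. CCAAT, present in 37.4% of windows, matched 1 time at the covered Cdc14a start and 2 times at the upstream Cdc14b start. TTTGAA, present in 17.9% of windows, matched at both bare Cdc14a starts and at no covered one of these genes. Across all starts with a peak in every library, 62.7% of windows held GGGCGG, 38.0% CCAAT and 11.4% TTTGAA. Across starts with a peak in none, these shares were 7.81, 38.3 and 25.5%. The TATA box, the second CHR form, the E2F core and the E-box were not found in these 5 windows, and occurred in 13.6, 1.56, 1.56 and 7.15% of all windows. A match describes the letters and is not a binding site.

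**Figure D1:**
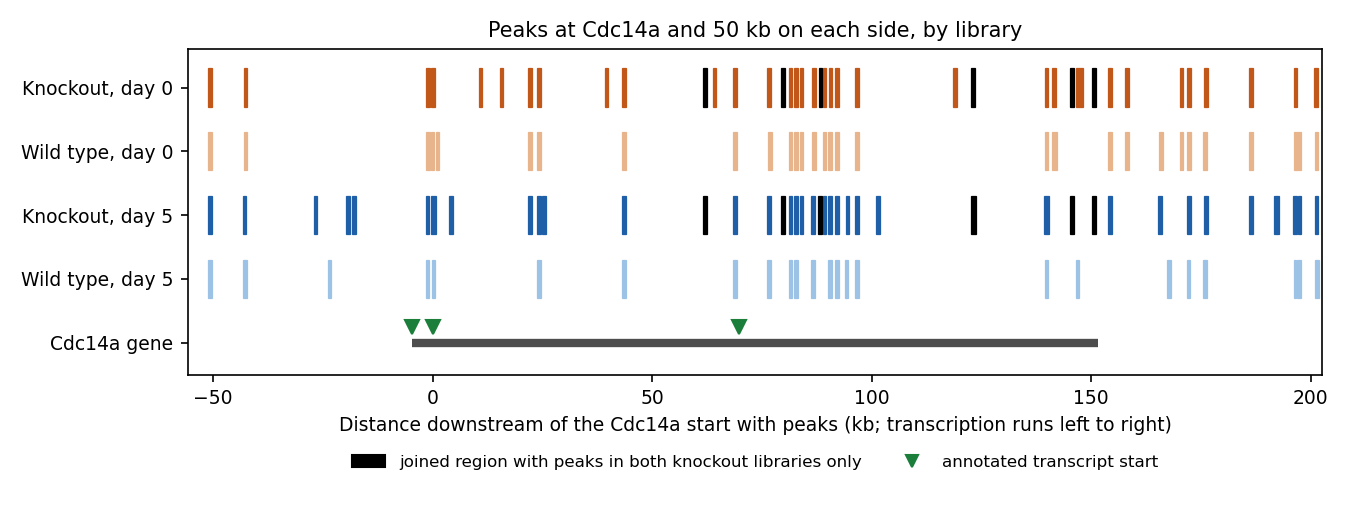
Peaks in the Cdc14a window, 1 row per library, against the distance in kb downstream of the start that has peaks. Green triangles mark annotated starts, the grey bar is the gene, and black bars mark the 6 regions with peaks in both knockout libraries and in no wild-type library, whose centres lie 62.01 to 150.6 kb downstream of the start. Peaks of 1 library in the same joined region are drawn as 1 bar.

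Across the whole Cdc14a window the knockout lists held more peaks than the wild-type lists. There were 40 peaks covering 34.1 kb in the knockout and 30 covering 25.2 kb in wild type at day 0. At day 5 there were 41 peaks covering 35.0 kb in the knockout and 24 covering 19.6 kb in wild type. The knockout values are close to each other, and both lie above both wild-type values. At day 0 the surplus lay inside the gene, and at day 5 both inside it and in the flanks. The gene held 30 peaks over 25.6 kb in the knockout and 18 over 15.5 kb in wild type at day 0, and 26 peaks over 22.9 kb in the knockout and 15 over 12.6 kb in wild type at day 5. Downstream of the gene, over 50 kb, peaks covered 6.91 kb in the knockout and 8.10 kb in wild type at day 0, where wild type was higher, and 7.94 kb and 4.45 kb at day 5. Upstream of the gene they covered 1.58 kb in the knockout and 1.59 kb in wild type at day 0, and 4.25 kb and 2.63 kb at day 5.

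At Cdc14b the window held 37 peaks covering 30.4 kb in the knockout and 27 covering 21.4 kb in wild type at day 0. At day 5 it held 38 peaks covering 31.6 kb in the knockout and 26 covering 21.8 kb in wild type. Here too the knockout values lie above the wild-type values at both days. Inside the gene, peaks covered 11.0 kb in the knockout and 6.82 kb in wild type at day 0, but 11.5 kb and 9.97 kb at day 5, where the libraries were closer. The 50 kb upstream of the gene, which hold Prxl2c, a gene of the peroxiredoxin-like family, had 8.70 kb in the knockout and 5.66 kb in wild type at day 0, and 10.0 kb and 4.15 kb at day 5. The downstream flank, which holds Habp4, had 10.8 kb and 8.90 kb at day 0 and 10.0 kb and 7.68 kb at day 5, in the same order of genotypes. Median widths of the peaks at the 2 loci ran from 836 to 870 bp over the libraries, so the surplus was one of number and not of width.

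**Figure D2:**
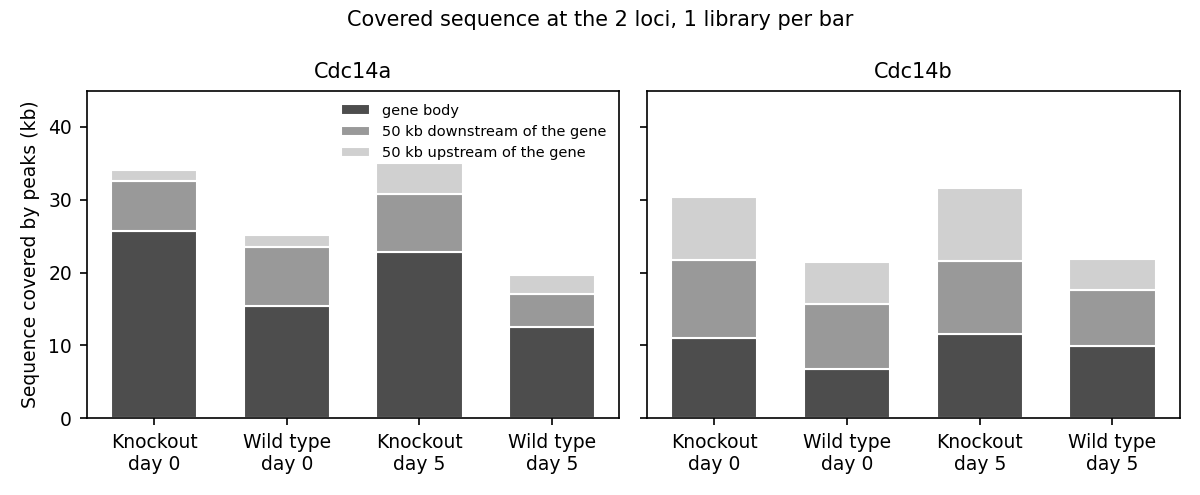
Sequence covered by peaks, in kb, at Cdc14a (left) and Cdc14b (right) in each library, 1 library per bar and no error. Shades split each bar into the gene body and the 50 kb on each side. At Cdc14a the knockout bars reach 34.1 and 35.0 kb and the wild-type bars 25.2 and 19.6 kb.

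The knockout lists were longer over the whole genome, so these differences must be read against all genes. The lists held 222257 peaks (190.3 Mb) in the knockout and 198860 (168.8 Mb) in wild type at day 0, and 227878 (197.3 Mb) and 189571 (162.5 Mb) at day 5. Median widths were 873 to 882 bp. Read depth is unknown, because the lists give positions with no height or count, so where a library has no peak, closed chromatin and too few reads cannot be told apart. The wild-type day 5 library stood apart in having peaks over the starts of the Y-linked genes Eif2s3y, Uty and Ddx3y, where the other libraries had none. The part of this in the differences at the loci was not tested, and day 0 values do not use that library. Of pluripotency markers of stem cells, Sox2, Nanog and Zfp42 had a peak over their starts in all libraries, and Pou5f1 had one over its main start at day 0 alone, in both genotypes.

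Relative to all genes, both loci were moderately more covered in the knockout at both days, and neither passed 1.5-fold. Each locus was compared as the log2 ratio of covered bp after adding 500 bp to each library. The median over the 20806 protein-coding genes with any covered base, which was 0.11 at day 0 and 0.31 at day 5 for knockout over wild type, was then subtracted. Cdc14a had a relative log2 ratio of 0.33 at day 0, with 12.4% of genes higher, and 0.51 at day 5, with 9.53% of genes higher. Cdc14b had 0.39 at day 0, with 9.38% of genes higher, and 0.22 at day 5, with 24.7% of genes higher. Of all gene windows, 4.60% passed 1.5-fold upward at day 0 and 7.92% at day 5, and 0 of the 2 loci did at either day. At both days together 1.14% of gene windows passed it. Ratios above the median at both days, as both loci had, occurred in 26.7% of genes.

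The share of peaks that came from the knockout was above the genome-wide share at both loci and days, but within wide counting error. At Cdc14a the knockout gave 57.1% of the peaks of both genotypes at day 0 (95% exact binomial interval, 44.7 to 68.9) and 63.1% at day 5 (50.2 to 74.7). At Cdc14b the shares were 57.8% (44.8 to 70.1) at day 0 and 59.4% (46.4 to 71.5) at day 5. Genome-wide the knockout share was 52.8% at day 0 and 54.6% at day 5, within each of these intervals, which cover counting error only. At this number of peaks a difference in this share between the loci and the genome was therefore not detected.

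In gene bodies without flanks the Cdc14a ratio was larger, 0.69 at day 0 and 0.72 at day 5, past 1.5-fold at both days. For Cdc14b it was 0.62 at day 0, also past 1.5-fold, and 0.09 at day 5. Among all gene bodies 11.3% passed 1.5-fold upward at day 0 and 17.9% at day 5, so such ratios were common. That background was not matched for gene length or coverage. Higher ratios were found in 8.74% (day 0) and 13.2% (day 5) of gene bodies for Cdc14a, and in 10.4 and 44.9% for Cdc14b. Scaled to the genes of the same chromosome in place of all genes, the window ratios were 0.26 and 0.55 for Cdc14a and 0.35 and 0.18 for Cdc14b, at day 0 and day 5.

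**Figure D3:**
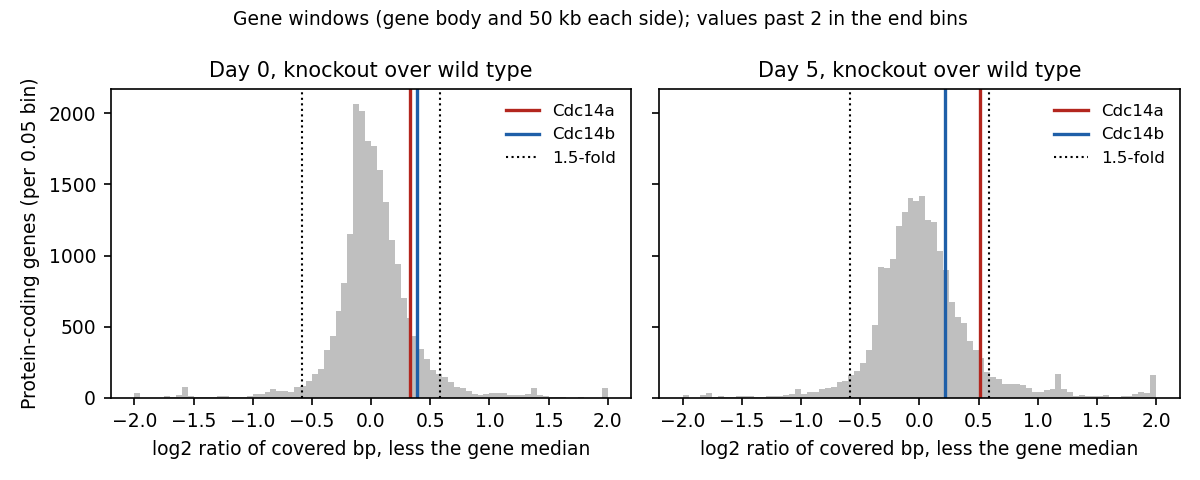
Distribution over 20806 protein-coding genes of the log2 ratio of covered bp, knockout over wild type, less the gene median, at day 0 (left) and day 5 (right). Lines mark Cdc14a (0.33 and 0.51), Cdc14b (0.39 and 0.22) and, dotted, 1.5-fold in either direction.

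The loci were also compared with the genome by which libraries held a given region. Peaks of the 4 lists that overlapped by at least 1 bp were joined, which gave 54 regions at Cdc14a and 45 at Cdc14b. Of the 54 Cdc14a regions, 19 (35.2%, 22.7 to 49.4) had a peak in all 4 libraries, and of the 45 Cdc14b regions also 19 (42.2%, 27.7 to 57.8), against 33.8% of all 328524 joined regions of the genome. Regions with a peak in both knockout libraries and in neither wild-type library numbered 6 at Cdc14a (11.1%, 4.19 to 22.6) and 8 at Cdc14b (17.8%, 8.0 to 32.1). Genome-wide this pattern made up 3.68% of regions, below both intervals. Neighbouring regions are not independent, and the intervals cover counting error only. When wild-type day 5 peaks were disregarded in assigning patterns, regions of both knockout libraries that lacked a day 0 wild-type peak were again 6 and 8. The genome-wide share was 6.83%, which lies inside the Cdc14a interval and below the Cdc14b one. The 4 lists stayed joined for this, so the totals still include regions of the wild-type day 5 library alone. The widest 189571 peaks of each list were also used, so that all lists were equally long. The knockout regions were then 5 of 51 at Cdc14a (3.26 to 21.4%) and 5 of 40 at Cdc14b (4.19 to 26.8%). Genome-wide the share was 2.83%, below both intervals, and the converse pattern had 1 region at each locus. With regions joined across gaps of up to 500 bp, they were 4 of 43 at Cdc14a (2.59 to 22.1%) and 6 of 36 at Cdc14b (6.37 to 32.8%), against 3.57% genome-wide, which again lies inside the Cdc14a interval and below the Cdc14b one. Among the 15092 gene windows with at least 20 joined regions, 3.53% had a share at least as high as that of Cdc14a and 0.305% one at least as high as that of Cdc14b. Both ranks belong to the full lists joined by overlap and were not redone under these alternatives.

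In the full lists the converse pattern, peaks in both wild-type libraries and in neither knockout library, had 0 regions at either locus. Taken as 3 counts of the total, a count of 0 allows a share of up to 5.56% at Cdc14a and 6.67% at Cdc14b, and the exact 95% intervals reach 6.60 and 7.87%, all above the 0.854% found genome-wide, and 76.5% of the same gene windows also had none. Since the site of the deletion is not known here, that count does not check the genotype.

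The 6 knockout regions of Cdc14a all lay inside the gene. From the 3' end they were 116273049 to 116273987, 116278019 to 116278912, 116300331 to 116301443, 116335300 to 116336255, 116343814 to 116344791 and 116361617 to 116362505. The first lies within 1 kb of the 3' end of the gene. The third lies in a stretch that was bare in wild type, from 116284699 to 116326946 at day 0 (42.2 kb) and from 116284674 to 116326974 at day 5 (42.3 kb). In that stretch the knockout also had a peak at 116304665 to 116305655 at day 0 alone and another at 116322236 to 116323105 at day 5 alone. The regions at 116335300 and 116343814 lie in the densest stretch of the locus.

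At Cdc14b the first of the 8 knockout regions, 64191637 to 64192581, covers the 3' end of the gene at base 64192545, although its day 5 peak alone ends at base 64192544. In the gene lay 64195974 to 64196886, 64251853 to 64252788, 64256625 to 64257678 and 64268514 to 64269514. Upstream of the gene lay 64286008 to 64287269, 64307308 to 64308292, which is inside Prxl2c, and 64322632 to 64323546, which is inside the lncRNA gene Gm31128. Within 1 kb of the 3' end of Cdc14a, peaks covered 505 bp in the knockout and 0 bp in wild type at day 0, and 502 and 0 bp at day 5. At Cdc14b they covered 945 bp in the knockout and 0 bp in wild type at day 0, and 843 and 511 bp at day 5, when wild type had a peak of its own at 64193035 to 64193931. A 3' end with a peak in both knockout libraries alone, as at Cdc14a, was found in 1.43% of 17492 protein-coding genes.

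**Figure D4:**
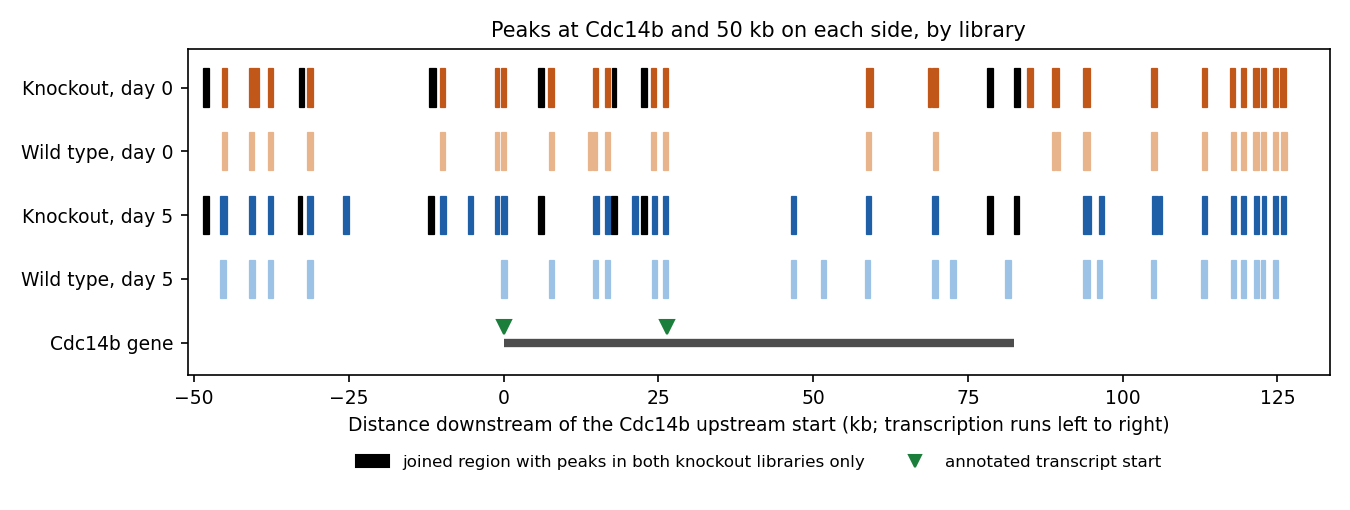
Peaks in the Cdc14b window, 1 row per library, against the distance in kb downstream of its upstream start. Green triangles mark annotated starts, the grey bar is the gene, and black bars mark the 8 regions with peaks in both knockout libraries and in no wild-type library, with centres from -48.10 to 82.88 kb. Peaks of 1 library in the same joined region are drawn as 1 bar.

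Peak by peak, most wild-type peaks at these loci had a knockout partner, and a smaller share of the more numerous knockout peaks had a wild-type one. At day 0, 13 of 40 knockout peaks at Cdc14a overlapped no wild-type peak (32.5%, 18.6 to 49.1), and 3 of 30 wild-type peaks overlapped no knockout peak (10.0%, 2.11 to 26.5). At Cdc14b these were 11 of 37 (29.7%, 15.9 to 47.0) and 1 of 27 (3.70%, 0.0937 to 19.0). Genome-wide at day 0 they were 24.7 and 15.9%, inside these intervals. At day 5, 20 of 41 knockout peaks at Cdc14a (48.8%, 32.9 to 64.9) and 3 of 24 wild-type peaks (12.5%, 2.66 to 32.4) had no partner. At Cdc14b 16 of 38 (42.1%, 26.3 to 59.2) and 4 of 26 (15.4%, 4.36 to 34.9) had none, against 36.0 and 23.2% genome-wide. The loci thus lay above the genome for knockout peaks and below it for wild-type peaks in each of the 4 pairs of values, and each difference was within counting error.

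**Figure D5:**
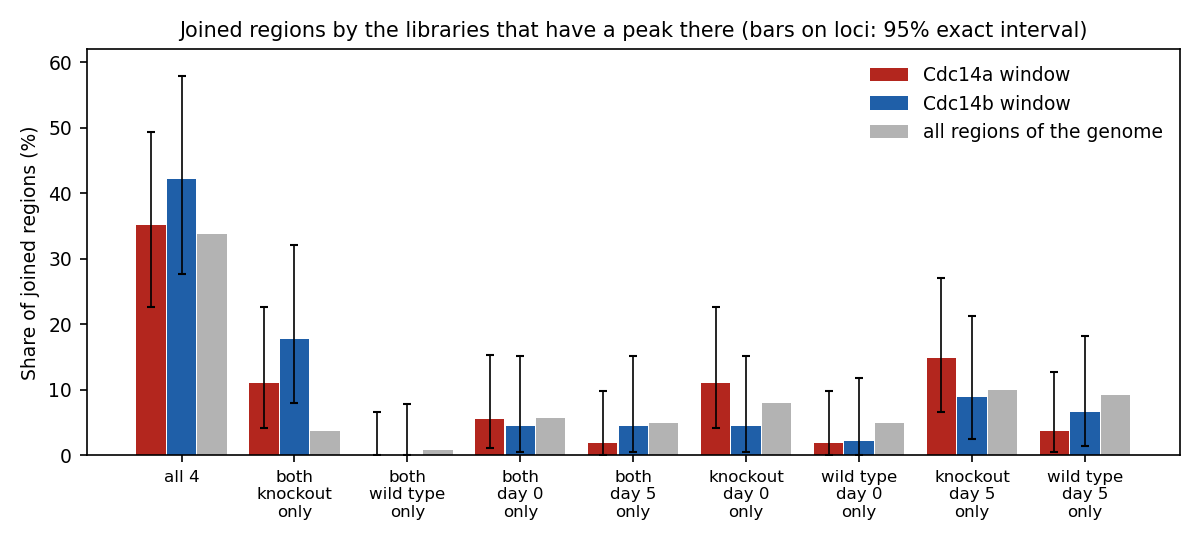
Share of joined regions, in percent, by the libraries with a peak in them, at Cdc14a (54 regions), at Cdc14b (45 regions) and over all 328524 regions of the genome. Error bars are 95% exact binomial intervals, and patterns of 3 libraries and of mixed genotype and day are left out. Regions of both knockout libraries only made up 11.1% at Cdc14a and 17.8% at Cdc14b, against 3.68% in the genome.

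Between day 5 and day 0 the loci differed by less than 1.5-fold in each genotype. The wild-type values use the day 5 library that had peaks over Y-linked starts, and the part of this was not tested. The medians over genes, subtracted from what follows, were -0.03 in the knockout and -0.22 in wild type for day 5 over day 0. Relative log2 ratios of day 5 over day 0 were 0.067 in the knockout and -0.13 in wild type at Cdc14a, and 0.08 in the knockout and 0.25 in wild type at Cdc14b. The 1.5-fold limit was passed by 7.66% of gene windows upward and 2.46% downward in the knockout, and by 10.0 and 6.28% in wild type. Put as the knockout over wild-type ratio, day 5 less day 0, the loci moved by 0.19 (Cdc14a) and -0.17 (Cdc14b), and 60.0 and 62.8% of genes differed by more than these between the days in size. Of the knockout peaks at day 5, 11 of 41 at Cdc14a (26.8%, 14.2 to 42.9) overlapped no knockout peak of day 0. At Cdc14b these were 6 of 38 (15.8%, 6.02 to 31.3). Of the wild-type peaks at day 5, 4 of 24 at Cdc14a (16.7%, 4.74 to 37.4) overlapped no wild-type peak of day 0. At Cdc14b these were 5 of 26 (19.2%, 6.55 to 39.4). Genome-wide, 27.4% of day 5 knockout peaks and 33.0% of day 5 wild-type peaks had no such overlap, inside these intervals. Conversely, 10 of 40 and 5 of 37 day 0 knockout peaks overlapped no day 5 knockout peak, against 25.4% genome-wide. For wild type these were 10 of 30 and 6 of 27, against 36.0% genome-wide, and these shares were also within counting error.

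The shares of regions that followed the day in both genotypes lay within counting error of the genome. Over both loci, 3 of 99 regions (3.03%, 0.629 to 8.60) had peaks in both day 5 libraries alone and 5 of 99 (5.05%, 1.66 to 11.4) in both day 0 libraries alone, against 5.01 and 5.73% of all regions. At Cdc14a, regions with peaks in both day 0 libraries alone included 116265482 to 116266463 in the lncRNA gene Gm46839 and 116281979 to 116282965 in Cdc14a. One region, 116329297 to 116330068 in Cdc14a, had peaks in both day 5 libraries alone. At Cdc14b, the neighbouring regions 64185185 to 64185806 and 64185839 to 64186437, at the end of Habp4, had peaks in both day 0 libraries alone. Those of both day 5 libraries alone were 64178031 to 64179137 in Habp4 and 64227701 to 64228640 in Cdc14b. The last lies in a stretch of the gene that was bare at day 0 over 32.0 kb in the knockout and 31.9 kb in wild type.

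Open regions were unevenly spread along the genes. At Cdc14a, 11 regions lay within 20 kb, from 116326947 to 116344791, all downstream of the internal start. The knockout had peaks in 10 of them and wild type in 8 at day 0, the knockout in 11 and wild type in 7 at day 5, and 6 were shared by all libraries. In contrast, the 17.5 kb from 116362506 to 116379978 held no peak in any library. At Cdc14b, the densest 20 kb held 9 regions, from 64248403 to 64267798, from the internal start upstream, along 1810034E14Rik. There the knockout had peaks in 7 and wild type in 6 at day 0, the knockout in 7 and wild type in 5 at day 5, and 4 were shared by all. The 19.8 kb just downstream of the internal start, from 64228641 to 64248402, held no peak in any library. The widest joined regions were 116300331 to 116301443 (1113 bp) at Cdc14a, from the knockout alone, and 64314466 to 64316180 (1715 bp) at Cdc14b, where the day 5 knockout peak bridged a pair of day 0 knockout peaks.

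Other genes that set the balance between cyclin-dependent kinases and phosphatases lay on both sides of the median. The list held 36 genes, among them CDC25 phosphatases, subunits of the phosphatases PP1 and PP2A, their regulators, cyclins, mitotic kinases and mitotic exit factors, and all 36 were measured. For knockout over wild type, 22 of 36 lay above the gene median at day 0 and 12 of 36 at day 5, with list medians of 0.03 and -0.09, against 0 for all genes by construction. Past 1.5-fold, 0 were higher and 1 lower at day 0, and 0 in either direction at day 5. Of all genes, 4.60% were higher and 3.05% lower at day 0, and 7.92 and 4.23% at day 5. The gene past it at day 0 was Ppp2r1a, a scaffold subunit of PP2A, with 2.61 kb in the knockout and 4.34 kb in wild type (relative log2 ratio -0.74). It was also the lowest at day 5, with 3.63 kb in the knockout and 3.99 kb in wild type (-0.42). The highest at day 0 was Arpp19, an inhibitor of PP2A in mitosis, with 22.2 kb and 15.0 kb (0.44). The highest at day 5 was Ppp2r1b, the other PP2A scaffold, with 13.8 kb and 7.75 kb (0.49).

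Over time, 11 of 36 list genes lay above the median in the knockout and 13 of 36 in wild type, with list medians of -0.08 in both. Ppp2r2b, a regulatory subunit of PP2A that is abundant in brain, was the highest in both genotypes. In the knockout it had 41.7 kb at day 5 and 30.9 kb at day 0 (0.46), and in wild type 40.9 kb and 22.8 kb (1.05). The lowest were Wee1, a kinase that inhibits CDK1, in the knockout (14.2 kb at day 5 and 21.8 kb at day 0, -0.58) and Mastl, a kinase that acts against PP2A in mitosis, in wild type (7.91 kb and 14.9 kb, -0.65). Past 1.5-fold were 0 genes in the knockout, and Ppp2r2b (higher) and Mastl (lower) in wild type, against 7.66% of all genes higher and 2.46% lower in the knockout and 10.0 and 6.28% in wild type.

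Genes elsewhere with the most similar profile over the 4 libraries were found by the distance between log2 covered bp, relative to each library's median and centred over the libraries. Among 18025 genes compared with Cdc14a, the nearest were Capza2 (distance 0.03), Slc35b4 (0.03) and Gda (0.04). Capza2, a subunit of the actin capping protein, had 20.9 kb in the knockout and 15.3 kb in wild type at day 0, and 21.9 kb and 12.2 kb at day 5. Among 18026 genes compared with Cdc14b, the nearest were Gnal (0.02), Rnf103 (0.02) and Qrfpr (0.03). Gnal, a G protein subunit of olfactory neurons and striatum, had 30.5 kb in the knockout and 21.7 kb in wild type at day 0, and 31.8 kb and 21.7 kb at day 5. With only 4 libraries, such likeness is a description.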

How the data were processed

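The values are peak positions, in 3 columns (chromosome, start, end). Per the file headers, the authors called peaks per library with cellranger-arc 2.0.0 against an mm10 reference and deposited no score, height or count with them. The submitters' processing notes also name Scanpy 1.7.2. Cell barcodes and RNA were not used here, no doublet step is stated in the sources used here, and no doublet caller was run.

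Starts were read as 0-based and are printed 1-based. Gene ends and transcript starts came from RefSeq tables of GRCm38.p6, and both members matched. Peaks were assigned by an overlap of 1 bp, joined across libraries by the same rule, and covered bp were summed per window (Python 3.11.15, numpy 2.4.6, scipy 1.17.1). The procedures were checked on simulated data. The 1.5-fold limit is a size, not a test. Members, gene lists and comparisons were chosen with earlier results of these data known. Named are the members, their neighbours, the extremes of the list with at least 2000 bp on average, 3 genes of most similar profile with at least 5000 bp and over 1 Mb away, and regions at starts, in both libraries of 1 genotype or day, or widest. Regions present in all libraries are summarised, and 1 neighbouring gene is not reported here. The comparisons of 3' ends and of shares of knockout regions with all genes were added after the values were seen. Alternatives covered windows, peak numbers, equal list lengths, scaling, pseudocounts, joining and overlap rules.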

Additional observations from a re-analysis of the deposited data

Results flagged for a closer look

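Between day 0 and day 5, covered bp at Cdc14a moved in opposite directions in the genotypes. Day 5 over day 0, the relative log2 ratio was 0.067 in the knockout and -0.13 in wild type, 1 library against 1 in each. The difference was not tested. Both values lie within 1.5-fold, and in the gene body alone both were below 0 (-0.16 in the knockout and -0.24 in wild type). The knockout ratio changed sign under 4 of 10 alternatives, and 60.0% of genes differed more between the days in size. The wild-type ratio uses the day 5 library, which alone had peaks over the starts of Y-linked genes. The part of this in the ratio was not tested.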

How the results depend on the processing

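No paired analysis was possible because each group holds 1 library, and for the same reason no replicate could be left out. For knockout over wild type, the 4 relative locus ratios stayed above 0 under all 10 alternatives, from 0.26 to 0.69 (day 0) and 0.38 to 0.72 (day 5) at Cdc14a and from 0.33 to 0.62 and 0.09 to 0.25 at Cdc14b. Those past 1.5-fold numbered 2 and 3 of 10 at Cdc14a and 2 and 0 of 10 at Cdc14b. Day 5 over day 0 in the knockout changed sign under 4 alternatives at Cdc14a (-0.20 to 0.22) and 1 at Cdc14b (-0.04 to 0.17), and neither ratio in wild type did. With the widest 189571 peaks of each list, regions of both knockout libraries alone numbered 5 at Cdc14a and 5 at Cdc14b, and those of both wild-type libraries alone 1 and 1. Genome-wide these patterns then made up 2.83 and 2.80%. Joined across gaps of up to 500 bp, the knockout regions numbered 4 of 43 and 6 of 36, against 3.57% genome-wide. That share lies inside the counting interval of Cdc14a and below that of Cdc14b. Disregarding wild-type day 5 peaks when patterns were assigned, with totals unchanged, gave 6 and 8, against 6.83%, with the same outcome. That alternative was chosen after seeing the data. At 2-fold in place of 1.5-fold, gene windows past the limit numbered 378 higher and 243 lower (knockout over wild type, day 0), 831 and 297 (day 5), 686 and 148 (day 5 over day 0, knockout) and 852 and 567 (wild type). The median of the kinase and phosphatase list at day 0 was -0.03 with flanks of 10 kb. Depth is unknown and limits what an absent peak can show.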

Other observations

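Several genes next to the targeted ones had accessible starts in every library, and the start of Gm31128 lay 92 bp (knockout) and 53 bp (wild type) from a peak at day 0 and 59 and 41 bp from one at day 5. Peaks covered both starts of Zfp367, a zinc finger gene, and the starts of Habp4, which encodes a hyaluronan-binding protein, and of Prxl2c in all 4 libraries. Gm46839 overlapped 2 peaks in the knockout and 3 in wild type at day 0, and 2 and 0 at day 5. Prxl2c overlapped 3 and 2 at day 0 and 4 and 2 at day 5, in the same order. Habp4 overlapped 6 and 6 at day 0 and 6 and 5 at day 5, Zfp367 4 and 4 and then 5 and 3, and Gm31128, whose start lies outside the Cdc14b window, 6 and 3 and then 5 and 4. The pseudogene Gm26358 lay under 1 peak in every library, while the pseudogenes Gm22361 and Gm46424 lay under none.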
